A study of Homo sapiens with 12 samples.

Results

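A set of 37 genes of base excision repair, mismatch repair, DNA end joining and direct reversal was followed in A549 cells exposed to a low dose of cisplatin. A gene was measured where a transcript cluster of the array (the unit into which exon probes were summarised) was paired with its symbol alone, and of several such clusters the brightest was taken. This gave 28 of the 37 genes, among 14232 genes tested and 22011 clusters on the arrays. The 28 comprised 8 DNA glycosylases, 7 genes of incision, gap filling and single-strand break repair, 3 mismatch repair genes, 9 end-joining genes and MGMT. Of the others, 8 (NTHL1, NEIL1, NEIL2, XRCC1, APLF, PMS2, XRCC5 and NHEJ1) lay in clusters paired with several genes and were not used here. MSH3 had no cluster paired with its symbol and was not analysed here.

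A549 is a human lung adenocarcinoma line that had received no chemotherapy. RNA was taken from cells treated with cisplatin for 24 h, from untreated cells at 24 h, from cells treated for 48 h and from untreated cells at 48 h, with 3 arrays in each of the 4 conditions. The dose was the 10% inhibitory concentration of cisplatin, which the study calls its no-observed-effect level. All cells were seeded in 96-well plates, drug was added 24 h later, and total RNA was hybridised to Affymetrix exon arrays. The question was which transcripts differed between treated and untreated cells at a dose that lowered viability little.

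Cisplatin binds purines and links neighbouring bases on 1 strand or, less often, bases on opposite strands. These lesions are removed mainly by nucleotide excision and interstrand crosslink repair, but other pathways meet the same DNA. Base excision repair starts with a glycosylase that removes a damaged base, after which the strand is cut, filled and sealed. Mismatch repair proteins recognise mispairs, including those opposite a platinum adduct, and loss of mismatch repair has long been linked to cisplatin tolerance. Non-homologous end joining seals double-strand breaks without a template.

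All values are log2 signals normalised by the robust multi-array average (RMA), so a difference of 1 is a doubling. Differences are cisplatin minus untreated, tested with limma across all genes, and a gene was called at a Benjamini-Hochberg adjusted p under 0.05. In bulk RNA, fewer cells that express a gene and less RNA per cell cannot be told apart. As a check on the treatment, CDKN1A, a p53 target that stops the cell cycle, averaged over both times 1.14 higher in treated cells (2.20-fold, SE 0.10, limma adjusted p = 0.000254). Of the epithelial markers, 5 of 6 lay above the median gene of the arrays (EPCAM, at 7.24, did not), and both measured aldehyde dehydrogenase genes lay above the 99th percentile. All 3 measured leukocyte markers and all 3 endothelial markers lay below the median gene. The alveolar type II markers SFTPB and SFTPC were also below it, and of the 3 fibroblast markers COL3A1, at 7.07, and DCN, at 4.12, lay below it while COL1A1, at 8.40, lay just above it.

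One array stood apart. Untreated 24 h replicate 3 had a mean correlation of 0.972 with the other arrays, across genes, against 0.987 to 0.990 for the remaining 11. The repair genes were low on it. Of the 28, 20 had their lowest signal of all 12 arrays there, while no other array held the lowest signal of more than 2 of them, and of all genes tested 37.4% were lowest on that array. The median deviation of the 28 genes from their own means was -0.23 on it, against -0.05 to 0.07 on the other arrays. Genes above the median level deviated by -0.25 there and dimmer genes by 0.19. Of the 28 repair genes, the 21 above the median level deviated by -0.25 and the 7 dimmer ones by -0.17. Proliferation markers had a median deviation of -0.20 on the same array, and the part of any of these values in the results was not tested. Differences at 24 h that moved by over 1.5 times or changed sign without this array are therefore also given without it. The study discarded an outlying sample set of the 24 h time without naming its arrays. The size of the CDKN1A change it prints, 1.1354, is that found here over both times with all 12 arrays. Without untreated 24 h replicate 3 the highest difference of any gene over both times was 1.05. The fits without that array are therefore not taken as the study's own.

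**Figure D1:**
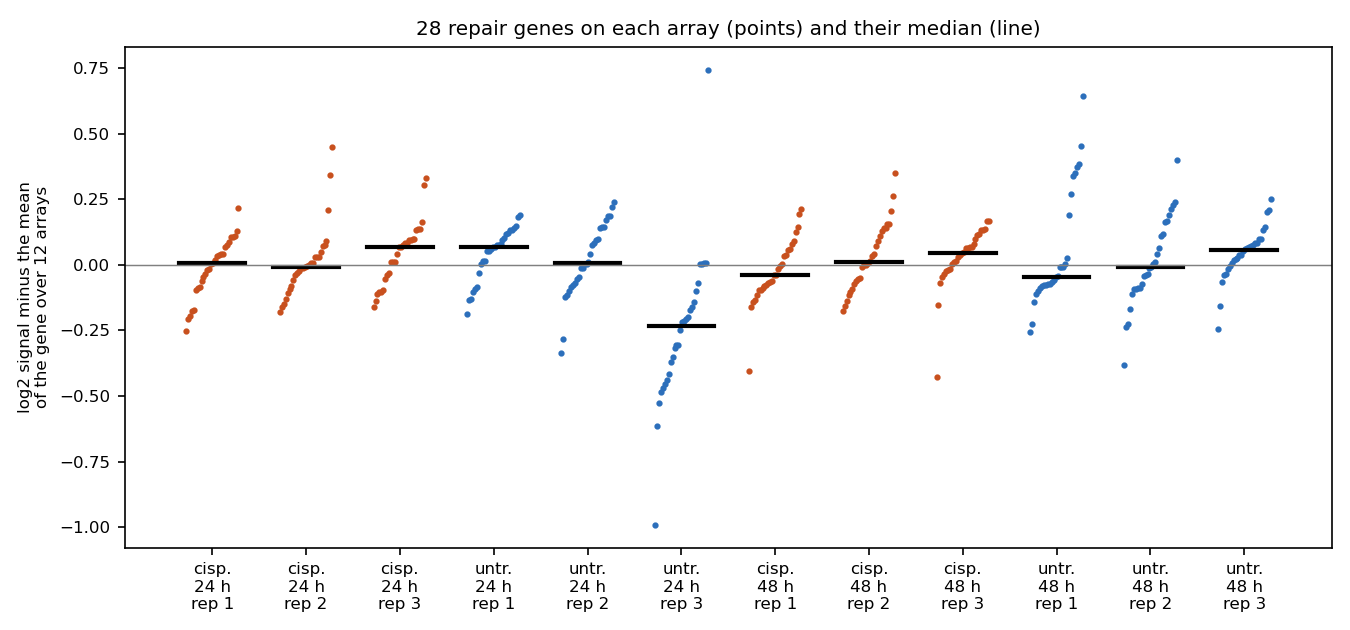
Log2 signal of each of the 28 repair genes minus the mean of that gene over 12 arrays (points, sorted within each array) and the median of the 28 (line), for 3 cisplatin (orange) and 3 untreated (blue) arrays at each time. The median lies at -0.23 on untreated 24 h replicate 3 and between -0.05 and 0.07 on the other arrays.

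The median level of the 28 genes was 9.10, against 8.29 for all genes tested, although brightness depends on the probes and was not used to order genes. The median SD between arrays of 1 condition was 0.177 for these genes and 0.174 for all genes. It was smallest for POLL, at 0.08, and UNG, at 0.09, and largest for TDG, at 0.41, and XRCC6, at 0.39. XRCC6, which encodes a subunit of the Ku heterodimer, averaged 6.34, below the median gene and at percentile 18.4 of all genes. Whether so dim a cluster reports the XRCC6 transcript was not tested, which holds for every XRCC6 value below.

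Promoter sequence was read for the 25 genes with a RefSeq window (GRCh38.p14), over the 250 bases before each annotated start and on both strands. Of the members, 7 had several starts, and a gene counted where any of its windows held a match. SMUG1, POLB and PRKDC had no window. A stretch is shown for 3 genes to set the promoter letters of genes from different pathways beside their signals: MSH6 for mismatch repair, NEIL3 for base removal and PARP2 for break sensing. Capitals mark a CCAAT box, read on the opposite strand, in MSH6 (chr2:47783070-47783129, plus strand), an NRF1 motif in NEIL3 (chr4:177309745-177309804, plus strand) and a cyclic AMP response element in PARP2 (chr14:20343575-20343634, plus strand).
MSH6: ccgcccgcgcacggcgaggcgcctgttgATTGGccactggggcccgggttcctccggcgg
NEIL3: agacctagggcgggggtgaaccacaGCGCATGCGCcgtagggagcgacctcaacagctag
PARP2: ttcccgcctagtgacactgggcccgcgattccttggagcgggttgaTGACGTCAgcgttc

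The p53 decamer motif was found for 0 of the 25 genes and for 6.88% of all 11386 genes with a window. The E2F letters searched, TTTCCCGC and TTTGGCGC, were in 0 of the 25 and in 3.28% of all these genes. The NRF1 motif was in NEIL3 and MLH3, against 1.8% of all these genes, and the response element TGACGTCA in PARP2, APTX and LIG4, against 2.98%. CCAAT was in 17 of the 25 (41.1% of all these genes) and the GC box GGGCGG in 21 of the 25 (65.1%). No motif holds another whole, and a match or its absence describes the windows only.

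Across both times, none of the 28 genes passed the adjusted threshold. With all 12 arrays and time as a term, 0 of 28 were called, against 4 of 14232 genes (0.0281%), and 0 of 28 reached an unadjusted p under 0.05, against 3.33% of genes. Differences ran from -0.09 for MSH6 to 0.12 for TDG, with 21 positive and 7 negative, and their median was 0.03, against 0.01 for all genes. Over all genes 7651 were positive and 6581 negative. The smallest limma adjusted p among the 28 was 0.991. The 95% intervals show how large a change these arrays could have missed. For 27 of the 28 genes the interval lay within 0.5 of 0 in both directions, a 1.41-fold change, and TDG was the exception with an upper bound of 0.52. Of all genes tested, 93.3% had an interval inside that range. Without untreated 24 h replicate 3 the median difference of the 28 was -0.01, against -0.01 for all genes. In that fit 12 of the 28 differences changed sign, so no direction is drawn from them. No member had its 6 treated arrays all above or all below its 6 untreated arrays; over all genes 0.218% lay all above and 0.0281% all below.

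**Figure D2:**
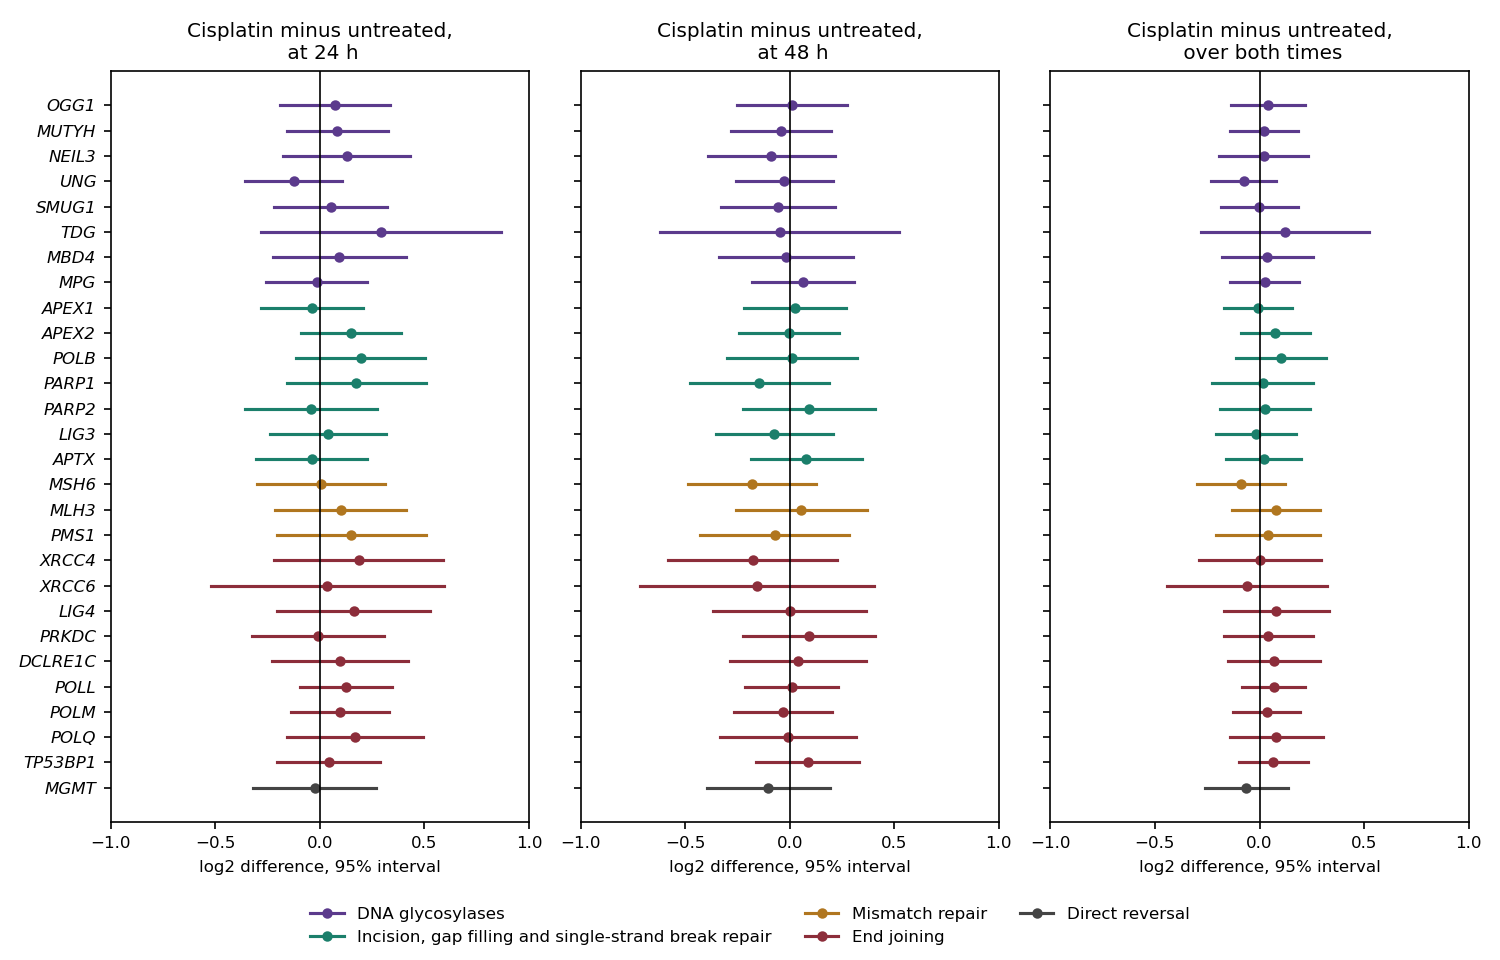
Cisplatin minus untreated log2 difference (points) with its 95% interval (lines) for each of the 28 repair genes at 24 h, at 48 h and over both times, coloured by pathway. Every interval includes 0, and over both times only the interval of TDG passes 0.5.

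At each time taken alone, again none of the 28 genes was called. At 24 h, 0 of 28 passed the adjusted threshold (0.00703% of all genes) and 0 of 28 an unadjusted p under 0.05 (3.06%), with differences between -0.13 for UNG and 0.29 for TDG. Of these, 21 were positive and 7 negative, with a median of 0.09. Over all genes 8245 were positive and 5987 negative, with a median of 0.03. Without untreated 24 h replicate 3 the split of the 28 was 9 positive and 19 negative and their median was -0.02, against 0.01 for all genes. At 48 h, 0 of 28 passed the adjusted threshold, as did 0% of all genes, and 0 of 28 an unadjusted p under 0.05 (1.15%). The split at 48 h was 12 positive and 16 negative, with a median of -0.01 and a range from -0.18 for MSH6 to 0.09 for PRKDC. Over all genes 6001 were positive and 8231 negative, with a median of -0.02. Intervals were wider than over both times: 21 of 28 lay within 0.5 of 0 at 24 h (71.1% of all genes) and 25 of 28 at 48 h (80.1%). The effect at 48 h minus the effect at 24 h was tested directly, and 0 of 28 were called or reached an unadjusted p under 0.05 (0% and 1.15% of all genes). Its median was -0.11 with all arrays and -0.003 without untreated 24 h replicate 3, against -0.04 for all genes in both fits.

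**Figure D3:**
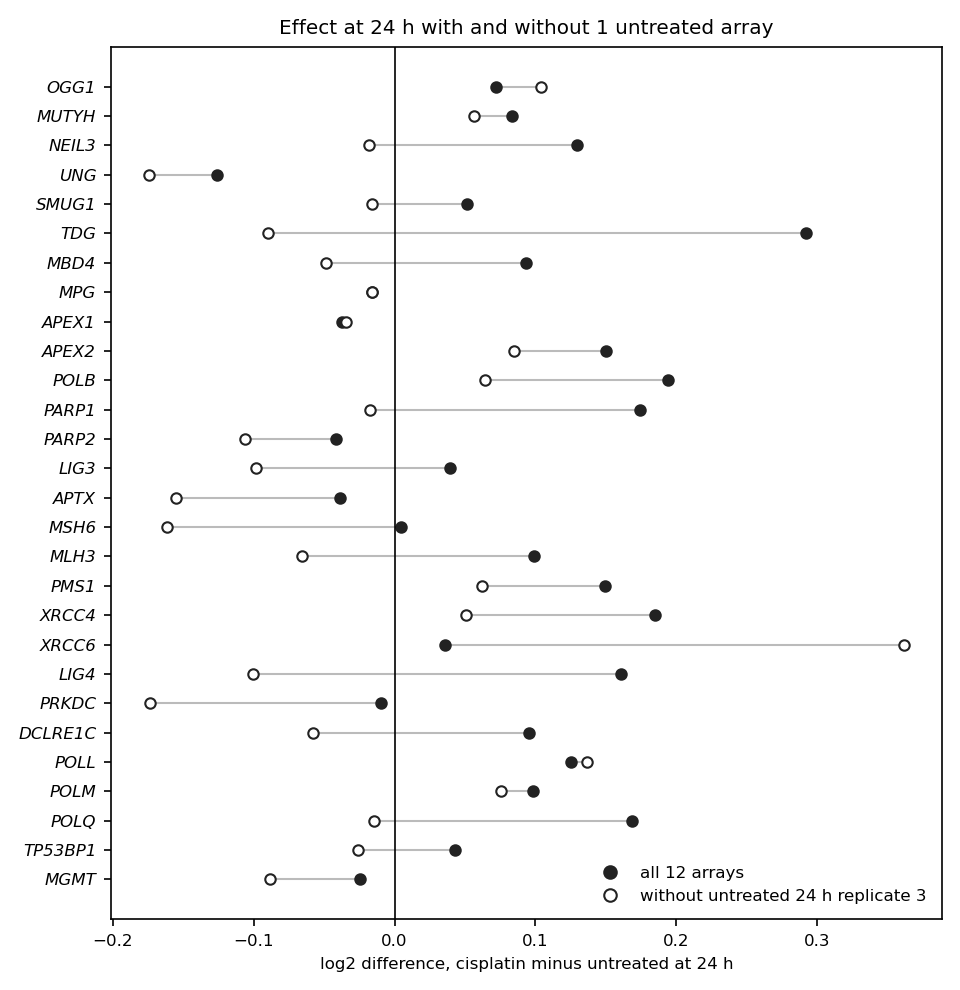
Cisplatin minus untreated log2 difference at 24 h for each of the 28 repair genes with all 12 arrays (filled) and without untreated 24 h replicate 3 (open). The median of the 28 is 0.09 with the array and -0.02 without it, and 12 genes change sign.

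The 8 measured glycosylases had differences from -0.08 (UNG) to 0.12 (TDG) over both times. UNG, which removes uracil, had 10.57, 10.56 and 10.80 on the cisplatin 24 h arrays, against 10.80, 10.84 and 10.67 on the untreated 24 h arrays. It had 10.66, 10.53 and 10.64 on the cisplatin 48 h arrays, against 10.60, 10.71 and 10.60 on the untreated 48 h arrays. The groups overlapped at both times, since cisplatin 24 h replicate 3 was as bright as the untreated arrays of that time. The mean was 10.63 ± 0.10 in treated cells and 10.70 ± 0.10 in untreated cells (SD, n = 6 arrays each), a difference of -0.08 with a 95% interval from -0.23 to 0.08. The difference was -0.13 at 24 h and -0.03 at 48 h.

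MBD4, which removes thymine from mispairs at methylated CpG sites, had 9.32, 9.34 and 9.24 on the cisplatin 24 h arrays, against 9.39, 9.30 and 8.92 on the untreated 24 h arrays. At 48 h it had 9.50, 9.47 and 9.51 with cisplatin, against 9.83, 9.29 and 9.41 without. The treated values lay inside the untreated range at both times, and the untreated arrays were spread more widely. The difference was 0.09 at 24 h, -0.05 at 24 h without untreated 24 h replicate 3, and -0.02 at 48 h. TDG acts on the same mispairs and was lowest, at 8.71, on untreated 24 h replicate 3, where its other 11 signals lay between 9.51 and 10.10. Its difference at 24 h was 0.29 (95% interval -0.28 to 0.87) with that array and -0.09 without it. At 48 h the TDG difference was -0.05 (95% interval -0.62 to 0.52).

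The remaining glycosylases differed by no more than 0.13 in size at either time. OGG1, which removes oxidised guanine, differed by 0.07 at 24 h and 0.01 at 48 h. MUTYH, which removes adenine placed opposite oxidised guanine, differed by 0.08 and -0.04. MUTYH had 8.22, 8.23 and 8.21 on the cisplatin 24 h arrays, against 8.15, 8.17 and 8.08 on the untreated 24 h arrays, so the 2 groups did not overlap at that time. MUTYH and POLL were the 2 of 28 genes whose treated arrays were all higher at 24 h, as were 5.94% of all genes; 0 of 28 were all lower (1.51%). NEIL3, a glycosylase for oxidised bases that also unhooks crosslinks in frog egg extracts, differed by 0.13 at 24 h and -0.09 at 48 h. SMUG1, a second uracil glycosylase, differed by 0.05 and -0.06, and MPG, which removes alkylated purines, by -0.02 and 0.07. The 24 h difference without untreated 24 h replicate 3 was -0.02 for both NEIL3 and SMUG1.

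The 7 genes that act after the base is removed had differences from -0.02 (LIG3) to 0.10 (POLB) over both times. POLB, the polymerase that fills the gap, had 8.89, 8.99 and 8.87 on the cisplatin 24 h arrays, against 8.83, 8.87 and 8.46 on the untreated 24 h arrays. On the 48 h arrays it had 8.74, 8.73 and 8.76 with cisplatin, against 9.05, 8.61 and 8.53 without. The groups overlapped by less than 0.01 at 24 h and more widely at 48 h, where the 3 treated arrays were close together and untreated 48 h replicate 1 was highest. The mean was 8.83 ± 0.10 in treated cells and 8.73 ± 0.23 in untreated cells (SD, n = 6 arrays each). The difference was 0.19 at 24 h and 0.01 at 48 h. Without untreated 24 h replicate 3 it was 0.06 at 24 h and 0.04 over both times, and without untreated 48 h replicate 1 it was 0.18 over both times.

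PARP1, which detects strand breaks and recruits the ligation complex, had 10.50, 10.51 and 10.47 on the cisplatin 24 h arrays, against 10.48, 10.55 and 9.94 on the untreated 24 h arrays. Its 48 h signals were 10.38, 10.48 and 10.48 with cisplatin, against 10.85, 10.45 and 10.47 without. The groups overlapped at both times. The difference was 0.17 at 24 h, -0.02 at 24 h without untreated 24 h replicate 3, and -0.15 at 48 h (95% interval -0.48 to 0.19). PARP2, the second break-sensing polymerase, differed by -0.04 at 24 h, by -0.11 at 24 h without that array, and by 0.09 at 48 h.

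The strand is cut by APEX1, the main abasic-site endonuclease, which differed by -0.04 at 24 h and 0.02 at 48 h. Its 12 signals lay between 12.45 and 12.76. APEX2, a related nuclease, differed by 0.15 and -0.00 at the same times. LIG3, which seals the nick, differed by 0.04 and -0.07, and APTX, which clears failed ligation ends, by -0.04 and 0.08. All 4 intervals included 0 at both times. Leaving out untreated 24 h replicate 3, the 24 h difference was 0.08 for APEX2, -0.10 for LIG3 and -0.15 for APTX.

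In mismatch repair, MSH6, MLH3 and PMS1 were measured. MSH6, which recognises base mispairs, had 9.67, 9.70 and 9.67 on the cisplatin 24 h arrays, against 9.79, 9.90 and 9.34 on the untreated 24 h arrays. At 48 h it had 9.57, 9.717 and 9.68 with cisplatin, against 10.05, 9.724 and 9.74 without. The groups overlapped at 24 h. At 48 h all 3 treated arrays were lower, by a margin of less than 0.01 between the nearest arrays, which made MSH6 the 1 of 28 genes without overlap in that direction (2.43% of all genes); 0 of 28 were all higher (3.58%). The difference at 24 h was 0.00, and -0.16 without untreated 24 h replicate 3. At 48 h the difference was -0.18 (SE 0.14, 95% interval -0.49 to 0.12), which was not past the threshold.

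Over both times MSH6 averaged 9.67 ± 0.05 in treated cells and 9.76 ± 0.24 in untreated cells (SD, n = 6 arrays each). The difference was -0.09 with all arrays. Without untreated 24 h replicate 3 it was -0.17 (limma, unadjusted p = 0.0341, adjusted p = 0.9996). MSH6 was the only member under an unadjusted p of 0.05 in that fit. Of all 14232 genes, 210 were higher and 146 lower under that p. The difference of MSH6 was -0.03 without untreated 48 h replicate 1, the brightest array of MSH6. It was -0.05 without untreated 24 h replicate 2 and -0.06 without cisplatin 48 h replicate 1. The stretch of its promoter shown above holds a CCAAT box, which was found for 41.1% of all genes with a window.

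PMS1, a homologue of bacterial MutL, had 8.75, 8.67 and 8.73 on the cisplatin 24 h arrays, against 8.72, 8.59 and 8.39 on the untreated 24 h arrays. On the 48 h arrays it had 8.53, 8.49 and 8.81 with cisplatin, against 8.99, 8.26 and 8.79 without. The groups overlapped at both times, with a spread among the untreated 48 h arrays of 0.38 (SD, n = 3). The difference was 0.15 at 24 h, 0.06 at 24 h without untreated 24 h replicate 3, and -0.07 at 48 h. MLH3, another MutL homologue, differed by 0.10 at 24 h, by -0.07 at 24 h without untreated 24 h replicate 3, and by 0.06 at 48 h.

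The 9 end-joining genes were measured, and their differences over both times ran from -0.06 (XRCC6) to 0.08 (POLQ). XRCC6 had 6.37, 6.78 and 6.23 on the cisplatin 24 h arrays, against 6.20, 5.999 and 7.08 on the untreated 24 h arrays. Its 48 h signals were 5.93, 6.599 and 5.91 with cisplatin, against 6.08, 6.30 and 6.54 without. Untreated 24 h replicate 3 was its highest array, and the groups overlapped at both times. Its difference was 0.04 at 24 h and -0.16 at 48 h, and 0.36 at 24 h without that array (limma, unadjusted p = 0.122).

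XRCC4 encodes the scaffold that holds the ligase LIG4 at the break. It had 9.19, 8.94 and 9.13 on the cisplatin 24 h arrays, against 9.24, 8.83 and 8.63 on the untreated 24 h arrays. At 48 h it had 9.33, 8.999 and 9.12 with cisplatin, against 9.76, 9.04 and 9.18 without. The groups overlapped at both times, and untreated 48 h replicate 1 was the highest of its 12 arrays. The difference was 0.19 at 24 h, 0.05 at 24 h without untreated 24 h replicate 3, and -0.18 at 48 h (95% interval -0.58 to 0.23).

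POLL, a polymerase that fills small gaps at joined ends, had 8.11, 8.13 and 8.17 on the cisplatin 24 h arrays, against 8.01, 7.99 and 8.04 on the untreated 24 h arrays. On the 48 h arrays it had 8.16, 8.22 and 8.04 with cisplatin, against 8.03, 8.27 and 8.09 without. The groups did not overlap at 24 h and did at 48 h. The difference at 24 h was 0.13 (SE 0.10, 95% interval -0.10 to 0.35) with all arrays and 0.14 without untreated 24 h replicate 3, and the difference at 48 h was 0.01.

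The other end-joining genes had differences between -0.01 and 0.17 at 24 h and between -0.03 and 0.09 at 48 h. LIG4, the ligase of the pathway, was 7.36 on untreated 24 h replicate 3 and 7.90 to 8.20 on the other arrays. Its difference at 24 h was 0.16 with that array and -0.10 without it, and its difference at 48 h was 0.00. PRKDC, the kinase activated by Ku at DNA ends, differed by -0.01 at 24 h and 0.09 at 48 h, and DCLRE1C, the nuclease that opens hairpin ends, by 0.10 and 0.04. POLM, a relative of POLL, differed by 0.10 and -0.03. POLQ, the polymerase of end joining through short homologies, differed by 0.17 and -0.01, and TP53BP1, which protects ends from resection, by 0.04 and 0.09. Without that array the 24 h difference was -0.17 for PRKDC, -0.06 for DCLRE1C, -0.01 for POLQ and -0.03 for TP53BP1.

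MGMT takes alkyl groups off guanine and is used up in the process. It had 8.18, 8.26 and 8.17 on the cisplatin 24 h arrays, against 8.17, 8.42 and 8.099 on the untreated 24 h arrays. Its 48 h signals were 8.23, 8.48 and 8.12 with cisplatin, against 8.13, 8.49 and 8.52 without. The groups overlapped at both times. The difference was -0.02 at 24 h, -0.09 at 24 h without untreated 24 h replicate 3, and -0.10 at 48 h (95% interval -0.40 to 0.19).

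**Figure D4:**
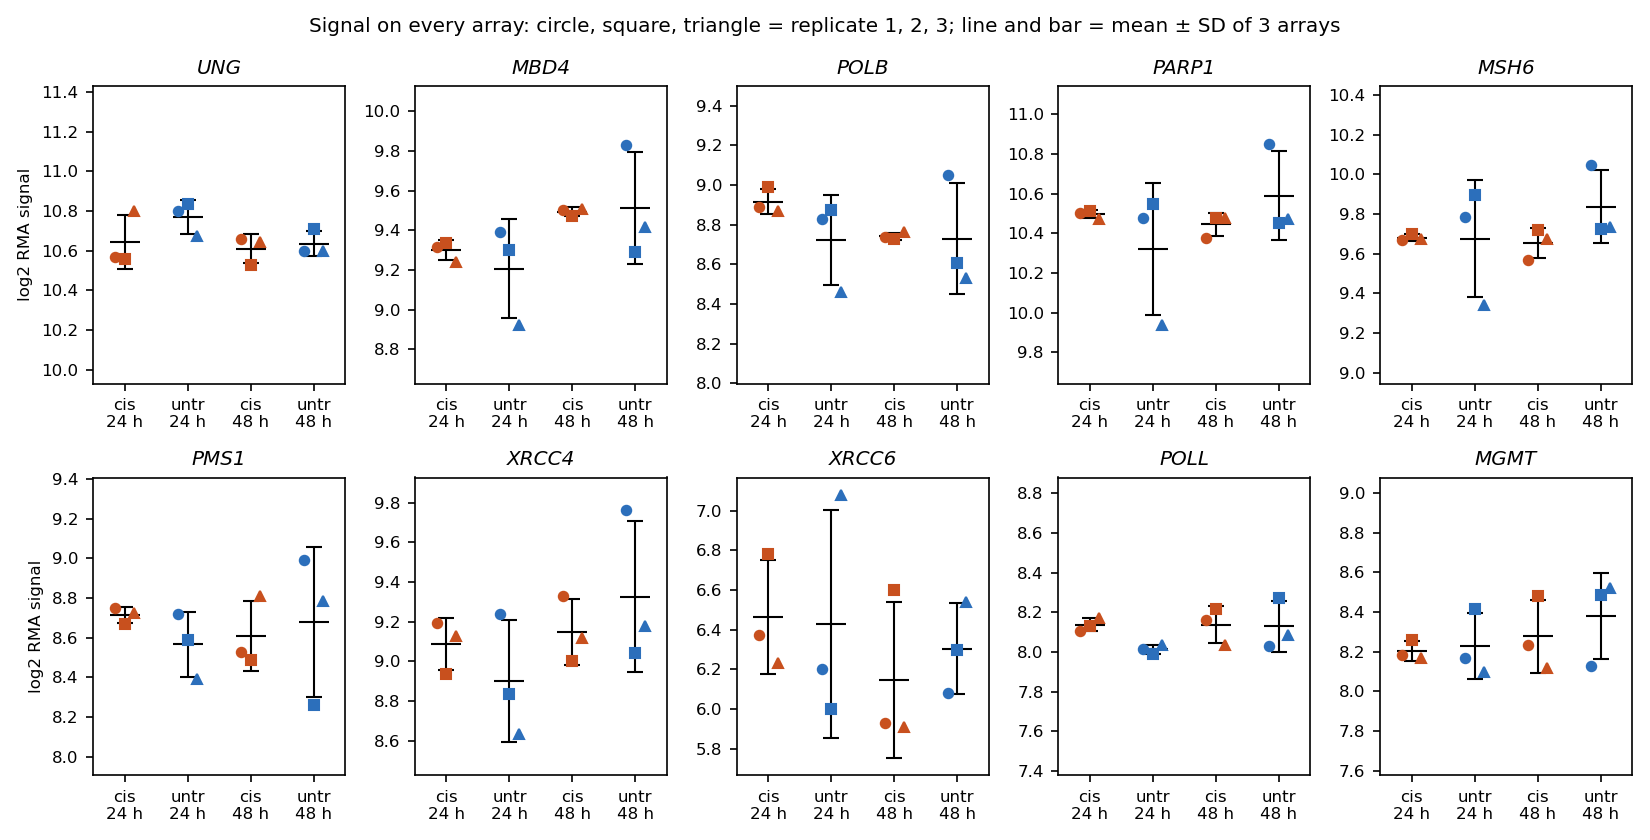
Log2 signal on every array for 10 repair genes in cisplatin-treated (cis, orange) and untreated (untr, blue) cells at 24 h and 48 h, with the mean and SD of 3 arrays; each vertical axis spans 1.5 log2 units. The groups overlap in every gene and time except POLL at 24 h and MSH6 at 48 h.

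Time in culture was compared within each treatment. In cisplatin-treated cells, 48 h minus 24 h was called for 0 of 28 genes (0% of all genes) and reached an unadjusted p under 0.05 for 0 of 28 (2.05%). The median was 0.01, and values ran from -0.32 for XRCC6 to 0.20 for MBD4. In untreated cells 0 of 28 were called (0%), and 1 of 28, XRCC4, reached an unadjusted p under 0.05 (5.88% of all genes). XRCC4 was 9.33 ± 0.38 at 48 h and 8.90 ± 0.31 at 24 h in untreated cells (SD, n = 3 each). That is a difference of 0.42 (SE 0.19, limma adjusted p = 0.821), and it was 0.29 without untreated 24 h replicate 3.

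Over all 28 genes, the untreated differences between times comprised 22 positive and 6 negative values, with a median of 0.10, against 0.04 for all genes. The split without untreated 24 h replicate 3 was 14 and 14 and the median 0.00, against 0.04 for all genes in that fit. The 18 proliferation markers had a median of 0.03 in cisplatin-treated cells and 0.04 in untreated cells for the same comparison of times, and -0.05 in untreated cells without untreated 24 h replicate 3; their part in these values was not tested.

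Further genes of the same pathways were measured for 24 of 35 listed, and 0 of 24 were called in any of the 6 comparisons. Over both times 1 of 24, PARP3, reached an unadjusted p under 0.05 (3.33% of all genes). PARP3, a break-responsive ADP-ribosyltransferase, had a difference of 0.16 (limma, unadjusted p = 0.0304, adjusted p = 0.991), and 0.18 without untreated 24 h replicate 3. The smallest p of the other lists belonged to EXO1, the mismatch repair exonuclease, at -0.10, to MRE11, an end-processing nuclease, at 0.12, and to ALKBH2, a demethylase of DNA bases, at -0.07. EXO1, without untreated 24 h replicate 3, was at -0.18 (limma, unadjusted p = 0.0325, adjusted p = 0.9996) and MRE11 at 0.08. In untreated cells 1 of 24, MAD2L2, a shieldin subunit that limits resection, had a 48 h minus 24 h difference of 0.42 at an unadjusted p of 0.0270 (limma, adjusted p = 0.800; 5.88% of all genes reached an unadjusted p under 0.05). Without untreated 24 h replicate 3 it was 0.21 (limma, unadjusted p = 0.149).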

How the data were processed

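The authors deposited log2 values per transcript cluster for 12 Affymetrix exon arrays, normalised by RMA; the submitters' processing notes name Affymetrix Power Tools and Affymetrix Expression Console, with versions not given in the sources used here; the genome build of the clusters is not named, so no array coordinates are given. The deposited log2 values were used as given. Of the clusters, 14432 were paired with 1 gene symbol, 2408 with several (left out) and 5171 with none in the table used here.

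Tests used R 4.3.3 and limma 3.58.1 (lmFit, eBayes) with Benjamini-Hochberg adjustment over 14232 genes: treatment and time as terms for the effect over both times, and 4 group means for the other 5 comparisons. All 12 arrays entered. The study's methods describe independent experiments, but the labels do not tie arrays to them, so p-values measure only the spread between these arrays. The number of arrays limits the precision; arrays have no read depth.

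Every gene's differences at 24 h and 48 h are given. Values on every array are given for members at an unadjusted p under 0.05 in a cisplatin comparison and, in each pathway, for the member with the smallest p over both times and between times in each treatment. MUTYH and the arrays of single genes that stood apart were added after their values were seen. The members, gene lists and rules were chosen with earlier results of these data known. The procedure was tested on simulated data. Alternatives were leaving out each array, a replicate block, dropping the time term, centring arrays on their medians, quantile normalization, weighting arrays by quality, variances moderated robustly with a trend on intensity, testing the brighter genes alone, averaging the clusters that share a gene, testing every cluster, and thresholds on unadjusted p.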

Additional observations from a re-analysis of the deposited data

Results flagged for a closer look

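For each of the 28 genes, the 6 arrays of each treatment were searched for a single array far from the other 5, by Dixon's ratio. Of 56 such sets, 7 held one. Chance alone marks about 1 in 20 independent sets, but these sets share the same 12 arrays and mix both times. The share over all genes is not given here, so no excess among the repair genes is drawn from the 7. Of the 7, 3 were untreated 24 h replicate 3, which was low for TDG (8.71, against 9.60 to 10.10 on the other untreated arrays), for MLH3 (8.66, against 9.03 to 9.22) and for LIG4 (7.36, against 7.98 to 8.20). Cisplatin 48 h replicate 1 was low for PARP1 (10.38, against 10.47 to 10.51 on the other cisplatin arrays) and for MSH6 (9.57, against 9.67 to 9.72). Untreated 48 h replicate 1 was low for MPG (8.86, against 9.05 to 9.16 on the other untreated arrays), and untreated 48 h replicate 2 was high for POLL (8.27, against 7.99 to 8.09).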

How the results depend on the processing

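No member was called in any of the 6 comparisons under any alternative run; the smallest limma adjusted p of a member was 0.103, with array weights in untreated cells between times. Leaving out 1 array at a time, the median of the members ran from -0.01 to 0.05 over both times, from -0.02 to 0.12 at 24 h, from -0.03 to 0.02 at 48 h, from -0.16 to -0.003 for the difference between the effects, from -0.02 to 0.02 between times in treated cells and from 0.00 to 0.14 in untreated cells. The lowest values at 24 h, over both times and in untreated cells, and the highest for the difference between the effects, came without untreated 24 h replicate 3 (-0.022 at 24 h and -0.0026 for the difference between the effects). At an unadjusted p under 0.05, 1 member (XRCC4) passed in untreated cells between times and 0 in the other comparisons. Up to 12 of 28 members changed sign under an alternative. Members with an unadjusted p under 0.05 over both times were MSH6 after quantile normalization (-0.15) or without untreated 24 h replicate 3 (-0.17), POLB without untreated 48 h replicate 1 (0.18), and, with array weights, POLB (0.14), LIG3 (-0.13) and MGMT (-0.20). Array weights also gave UNG (-0.20) and XRCC6 (0.48) at 24 h, POLB (0.18), LIG3 (-0.17), XRCC6 (-0.46) and MGMT (-0.28) at 48 h, APTX (0.32) and XRCC6 (-0.93) for the difference between the effects, MBD4, POLB and XRCC6 between times in treated cells, and MUTYH, UNG, POLB, APTX, XRCC4 and XRCC6 in untreated cells. Apart from the fit without untreated 24 h replicate 3, the share of all genes under an unadjusted p of 0.05 is not given here. No result about the repair genes is drawn from these members. With array weights 55 genes were called over both times in place of 4. The genes called over both times also numbered 7 and 6 without untreated 24 h replicates 1 and 3, 18 without untreated 48 h replicate 1, 10 with quantile normalization, 13 with no time term, 14 with a trend and robust variances, and 17 among genes above the median level. Array weights also called 4 genes at 24 h in place of 1, 181 at 48 h in place of 0, and 18 in treated and 150 in untreated cells between times in place of 0. With the replicate block, the median over both times was 0.03 and 17 genes were called, none a member. The 18 pairs of arrays with the same number had correlations of their deviations from -0.39 to 0.64, and 10 were over 0.1. These correlations do not settle whether the numbers pair the arrays. TDG was brightest on replicate 2 in each condition, at 10.04 (cisplatin) and 9.94 (untreated) at 24 h, and 10.05 and 10.10 at 48 h. The main tests left the arrays unpaired. The part of the numbers in the spread and interval of TDG was not tested.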
